A study of Mus musculus with 24 samples.

Results

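The histone chaperones that act outside the HIRA pathway were followed in left ventricle in which Hira had been deleted from cardiomyocytes. The set holds 10 genes chosen by symbol: Chaf1a and Chaf1b, which encode the large and middle subunits of chromatin assembly factor 1 (CAF-1), Nasp, Nap1l1, Nap1l4, Set, Ssrp1 and Supt16, which encode both subunits of FACT, Npm1 and Hjurp. Of these, 7 genes had a probe annotated with their symbol, through 9 probes, among 17742 genes measured on the array. Ssrp1, Supt16 and Npm1 had no probe annotated with their symbol or a synonym, so FACT and nucleophosmin themselves were not analysed here.

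Expression was measured on single-colour MouseOne Array Plus arrays, with 3 arrays for each of 4 Hira CKO and 4 control mice, 24 arrays in all. Hira CKO mice were aMHC-cre Tg/+; Hira flox/-, and control mice were aMHC-cre Tg/+; Hira flox/+. Both groups were 6 weeks old, on a C57BL6/J;129S1/SvImJ background, carried the Cre transgene and, per the methods, 1 Rosa26 YFP reporter allele. RNA came from free wall of the left ventricle without visible scar. The αMyHC promoter drives Cre in cardiomyocytes, so control cardiomyocytes can lose their floxed copy and keep the wild-type one, whereas Hira CKO mice carry a null allele in every cell and lose the floxed copy in cardiomyocytes. The dissected wall also holds endothelial cells, fibroblasts and other cells, and in such bulk RNA fewer cells of a type and less RNA per cell cannot be told apart.

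Histone chaperones bind histones that are not yet in, or have just left, a nucleosome, and hand them to DNA or to each other. CAF-1 travels with PCNA at the replication fork and deposits H3.1-H4 on new DNA, and NASP guards the soluble H3-H4 pool that feeds it. NAP1L1, NAP1L4 and FACT handle mainly H2A-H2B, FACT doing so during transcription elongation and replication. SET binds histones and also inhibits protein phosphatase 2A, HJURP loads the centromeric variant CENP-A, and nucleophosmin (Npm1) works in the nucleolus. HIRA, by contrast, deposits H3.3 outside replication, and most adult cardiomyocytes do not replicate their DNA. Whether transcripts of the other chaperones differ when HIRA is lost is the question that the comparison addresses.

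The Chaf1a promoter is shown because Chaf1a was the only one of the 7 genes that passed the test. It comes from RefSeq on build GRCm38.p6 and covers the 250 bases before the annotated start, chr17:56040166-56040415, plus strand, 5′ to 3′, with a match to the E2F core TTCCCGC in capitals.
Chaf1a: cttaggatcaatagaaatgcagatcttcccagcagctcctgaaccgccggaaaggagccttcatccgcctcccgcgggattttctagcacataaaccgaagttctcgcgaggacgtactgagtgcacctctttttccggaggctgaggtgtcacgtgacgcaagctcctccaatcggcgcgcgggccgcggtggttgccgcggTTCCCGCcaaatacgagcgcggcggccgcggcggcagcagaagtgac
E2F factors are known to drive S-phase genes, and this core was searched on both strands in windows that run from 250 bases before to 50 bases after each start. It can overlap a GC box on the other strand. It occurred in 4.6% of 32851 promoters. The table holds 7 windows of 6 measured members, Set having a pair of starts and Nap1l4 none, and 3 of the 6 members held the core. The match in Chaf1a and those in Chaf1b and Nap1l1 are set side by side with 10 bases on either side, the last 3 as the reverse complement GCGGGAA.
Chaf1a, chr17:56040359-56040385, plus strand: gttgccgcggTTCCCGCcaaatacgag
Chaf1b, chr16:93883664-93883690, plus strand: cctccgaggcGCGGGAAtgggattccc
Chaf1b, chr16:93883917-93883943, plus strand: cctgcggcgcGCGGGAAgctgcgggct
Nap1l1, chr10:111473045-111473071, plus strand: accgccacagGCGGGAAgcctaaggtg
The CHR element TTTGAA of cell cycle genes lay in a window of 3 of the 6 members (Nasp, Set and Hjurp), and in 17.9% of all promoter windows. The CCAAT box lay in 5 members and in 37.4% of all windows, and the GC box GGGCGG in 3 members and in 35.7% of all windows. A match describes letters in a window and does not show a bound site.

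Probe intensities below are the geometric mean of the 3 arrays of a mouse, on a linear scale on which every array has a median of 513.2. Changes are log2 fold changes, Hira CKO minus control, from limma, and a gene was called where its p, adjusted over all 17742 genes by the Benjamini-Hochberg method, was under 0.05. Hira itself read 228, 205, 200.04 and 168 in Hira CKO mice, against 209, 203, 250.2 and 254 in control mice. Its means were 200.2 ± 25.0 in Hira CKO and 229 ± 26.7 in control (SD, n = 4 each), a change of -0.20 (SE 0.13, adjusted p = 0.282). The groups overlapped. The sources used here do not place this probe relative to exon 4, the part flanked by loxP sites, so its level does not check the deletion. Cardiomyocyte markers were bright in every mouse, with Tnnt2 at 246044 ± 7107 in Hira CKO and 229065 ± 16265 in control.

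Of the 7 measured chaperone genes, 1 was called lower in Hira CKO and none was called higher in limma. Over all genes 9.65% were called lower and 4.94% higher, so 1 of 7 is near the background. At an unadjusted p under 0.05 3 members were lower and 0 higher, beside 26.8% of all genes lower and 9.74% higher. The mean was lower in Hira CKO for 6 of the 7, but it was lower for 67.8% of all genes as well. Every Hira CKO mouse lay below every control mouse for 3 of the 7 (Chaf1a, Nap1l1 and Set), whereas the groups lay apart in either direction for 23.4% of all genes. The median change of the 7 was -0.25, beside -0.14 for all genes. After quantile normalization, which moved the median of all genes to -0.015, the median of the 7 was -0.19. Chaf1a was then still the only member called, and 5.48% of all genes were called lower and 7.05% higher.

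**Figure D1:**
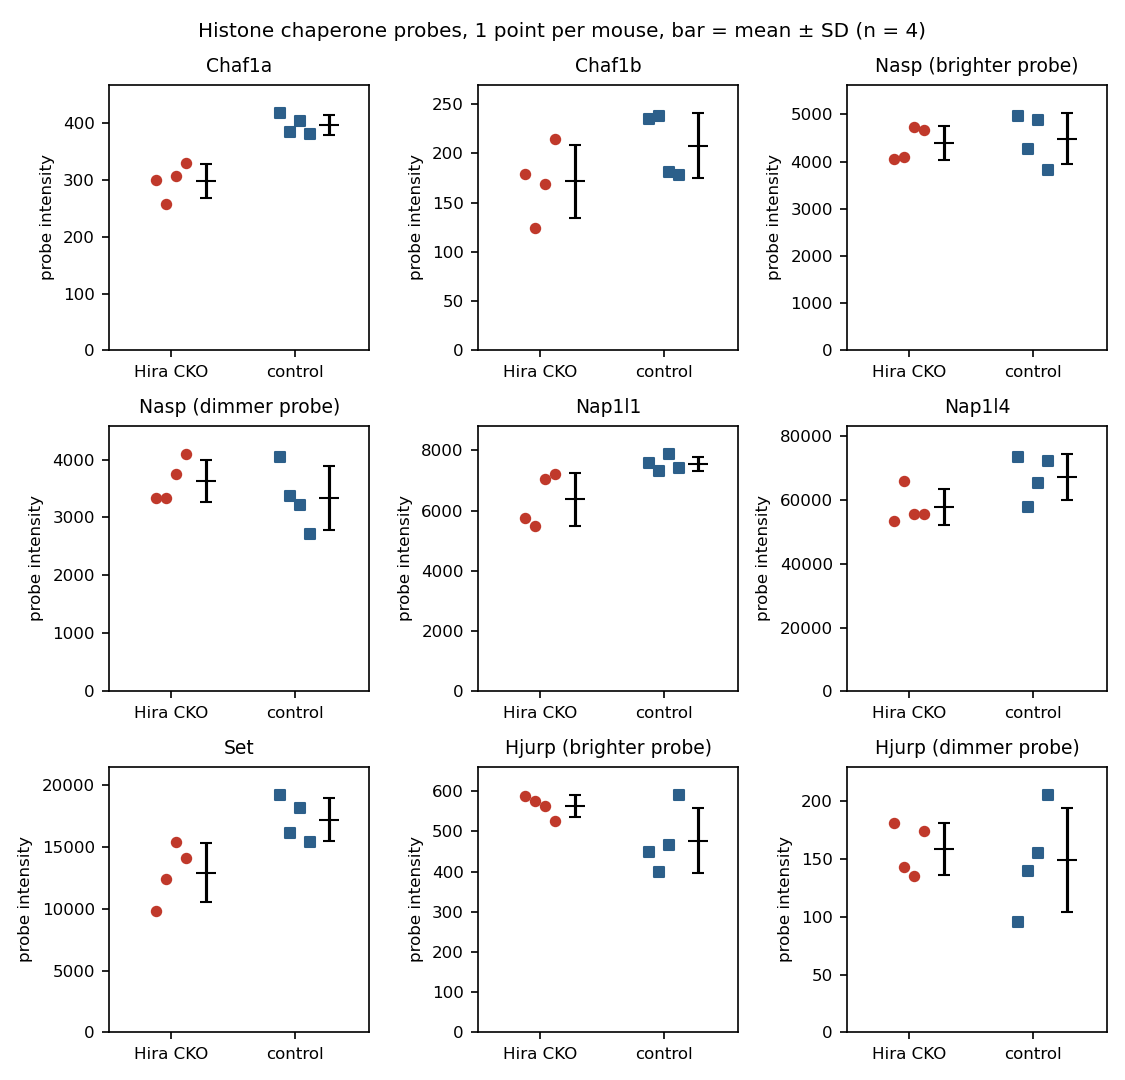
Probe intensity (linear scale, vertical axes from 0) of the 9 probes of 7 histone chaperone genes, with Hira CKO mice as red circles on the left and control mice as blue squares on the right; black bars are the mean ± SD of 4 mice. The groups lie apart for Chaf1a, Nap1l1 and Set, touch almost exactly for Set (15390.1 and 15393.8), and overlap for the other probes.

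CAF-1 was represented by both of its specific subunits, and the large one fell. CHAF1A binds PCNA and carries much of the contact with H3-H4. Chaf1a (chr17:56040416-56068026, GRCm38.p6) read 299, 258, 307 and 330.2 in the Hira CKO mice (CKO_6300, CKO_6499, CKO_6672 and CKO_6707, the order used throughout), against 418, 384, 405 and 381 in the control mice (control_6706, control_6299, control_6675 and control_6497). CKO_6499 was the lowest of all 8, and the highest Hira CKO mouse stayed below the lowest control mouse. The means were 299 ± 29.9 in Hira CKO and 397 ± 17.6 in control (SD, n = 4 each). The change was -0.42 (SE 0.097, 95% interval -0.64 to -0.19), or 0.75-fold, with an adjusted p of 0.0277 in limma. The exact two-sided permutation test over mice gave p = 0.0286, the smallest that 4 against 4 mice can give. Among single arrays, 11 of 12 Hira CKO arrays were dimmer than the dimmest of the 12 control arrays, the Hira CKO arrays spanning 226 to 377 and the control arrays 363 to 431.

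The direction of Chaf1a was the same in all 24 alternative fits at the threshold of 0.05, with changes of -0.48 to -0.35, while the call was kept in 15 of them. It was kept after quantile normalization, at -0.38 (adjusted p = 0.0337). Among the 1774 genes of similar brightness the median change was -0.045 as deposited, with 6.03% called lower, and -0.0042 after quantile normalization. The call was lost in 6 of 8 fits that left out 1 mouse. The adjusted p was 0.0548 without CKO_6499, 0.0538 without CKO_6672, 0.0673 without control_6706, 0.0583 without control_6299, 0.0809 without control_6675 and 0.0524 without control_6497. It was also lost without the 2 arrays with over 1000 values under 1, a setting chosen after the data were seen, at -0.39 (adjusted p = 0.0526). Without array 1 of every mouse the adjusted p was 0.065, and without array 3 it was 0.0665.

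Chaf1b, the WD-repeat subunit that completes CAF-1 with RBBP4, varied more. Chaf1b (chr16:93883900-93906115) read 179, 124, 169 and 214 in Hira CKO mice, against 235, 238, 181 and 178 in control mice. Control mice fell in a brighter and a dimmer pair, and CKO_6707 lay between the pairs. The means were 172 ± 37.1 in Hira CKO and 208 ± 33.2 in control, a change of -0.29 (SE 0.18, 95% interval -0.70 to 0.12, adjusted p = 0.27). The interval holds the change of Chaf1a as well as 0. A fit with neighbouring mouse numbers as a block, which the labels do not describe as pairs, gave the same change with a smaller error. The SE was 0.11 and the adjusted p 0.108 in limma, so Chaf1b was not called there either. Rbbp4, a histone-binding protein shared by CAF-1 and several other complexes, averaged 498 ± 81.0 in Hira CKO and 489.7 ± 3.67 in control, a change of 0.0085 (SE 0.12).

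**Figure D2:**
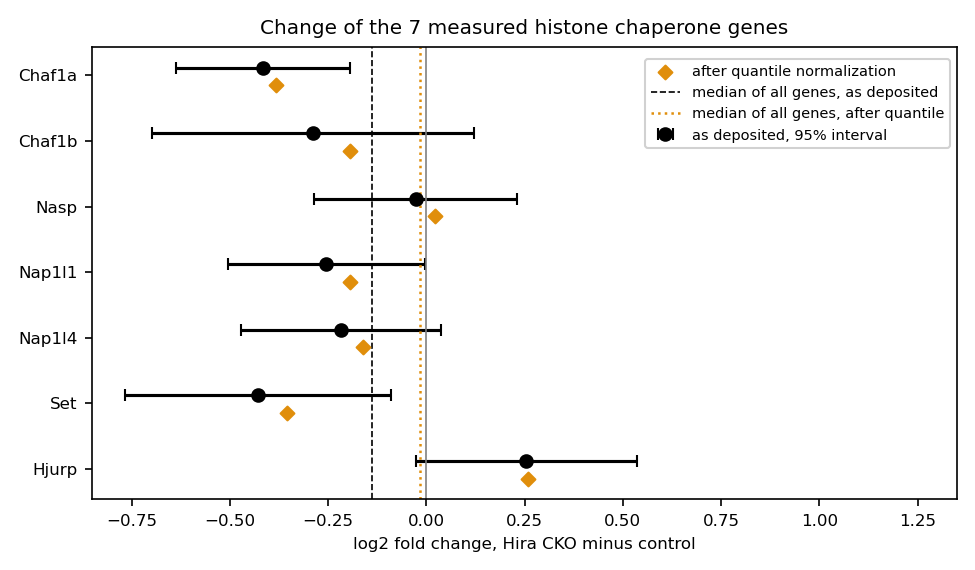
Log2 fold change (horizontal axis, Hira CKO minus control) of the 7 measured histone chaperone genes, as deposited (black circles with 95% intervals) and after quantile normalization (orange diamonds); vertical lines mark 0 and the median of all genes, -0.14 as deposited (dashed) and -0.015 after quantile normalization (dotted). Chaf1a at -0.42 and Set at -0.43 lie farthest to the left, and Hjurp at 0.25 is the only one to the right of 0 in both.

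NASP binds free H3 and H3-H4 and keeps this reserve from degradation. Nasp (chr4:116601052-116628676) had a pair of probes. The brighter read 4056, 4096, 4738 and 4668 in Hira CKO mice, against 4975, 4265, 4885 and 3819 in control mice. The ranges overlapped almost wholly, and the change was -0.027 (SE 0.11, 95% interval -0.29 to 0.23, adjusted p = 0.884). The dimmer read 3341, 3334, 3746 and 4095 in Hira CKO mice, against 4048, 3363, 3216 and 2723 in control mice, with a change of 0.13 (SE 0.14, adjusted p = 0.50 over all probes). The probes differed in sign, and neither showed a difference beyond the spread between mice.

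The nucleosome assembly protein family carries H2A-H2B between cytoplasm and chromatin. Its founding member Nap1l1 (chr10:111472882-111498150) read 5773, 5479, 7051 and 7223 in Hira CKO mice, against 7591, 7335, 7884 and 7423 in control mice. CKO_6300 and CKO_6499 were clearly dimmer, while CKO_6672 and CKO_6707 came close to the control range. The means were 6382 ± 883 in Hira CKO and 7558 ± 242 in control. The change was -0.25 (SE 0.11, 95% interval -0.51 to -0.0023), with an unadjusted p of 0.0484 and an adjusted p of 0.134 in limma, so it was not called. The groups did not overlap, as for 23.4% of all genes. The exact two-sided permutation p of 0.0286 restates this, since every gene with groups apart has that value. At the level of arrays, 7 of 12 Hira CKO arrays lay below all control arrays.

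Nap1l4 (chr7:143513579-143549882), the second widely expressed member, read 53562, 65942, 55699.7 and 55673 in Hira CKO mice, against 73407, 57663, 65356 and 72217 in control mice. Here CKO_6499 was the brightest of its group and reached into the control range. The change was -0.22 (SE 0.11, 95% interval -0.47 to 0.037, adjusted p = 0.19). Nap1l1 and Nap1l4 are paralogs, and the probe sequences were not analysed here for cross-hybridization.

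SET, also known as template activating factor I, shields histone tails from acetylation and inhibits protein phosphatase 2A. Set (chr2:30061996-30072577) read 9812, 12404, 15390.1 and 14069 in Hira CKO mice, against 19204, 16113, 18149.9 and 15393.8 in control mice. The order followed that of Nap1l1 in part, with mice CKO_6300 and CKO_6499 dimmest, and the brightest Hira CKO mouse all but met the dimmest control mouse. The means were 12919 ± 2404 in Hira CKO and 17215 ± 1767 in control. The change of -0.43 (SE 0.15, 95% interval -0.77 to -0.090) was as large as that of Chaf1a with a wider error, and its adjusted p was 0.0792. By array number it was -0.60 over arrays numbered 1, -0.42 over those numbered 2 and -0.26 over those numbered 3, and 9 of 12 Hira CKO arrays were below all control arrays. In the same order the change was -0.43, -0.23 and -0.10 for Nap1l1 and -0.56, -0.28 and -0.41 for Chaf1a. Chaf1b went the other way, with -0.036, -0.36 and -0.47.

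**Figure D3:**
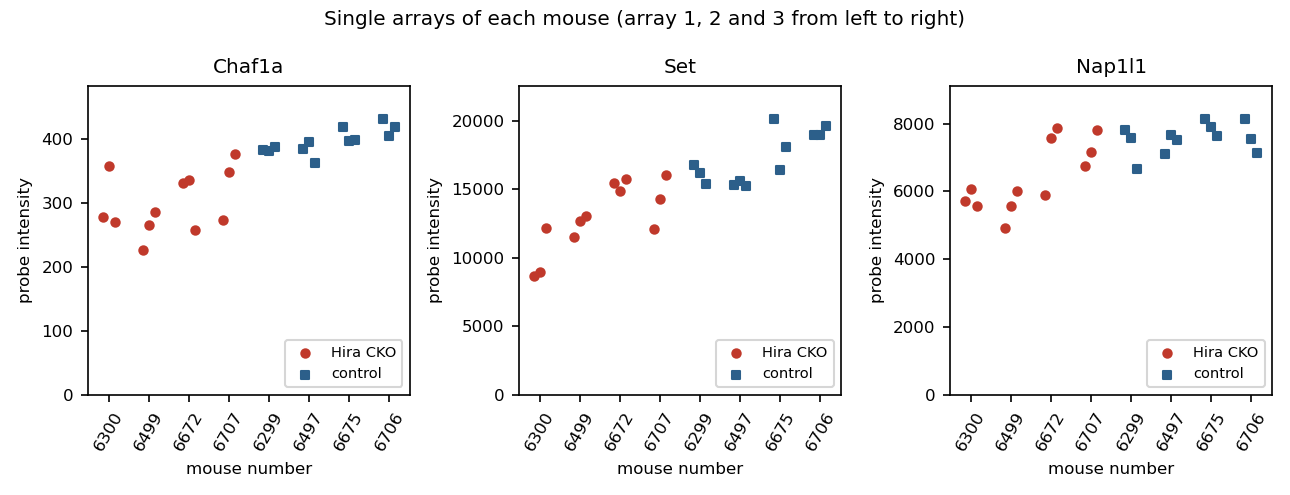
Probe intensity (vertical axes from 0, linear scale) of Chaf1a, Set and Nap1l1 on each of the 3 arrays of a mouse, by mouse number, with the 4 Hira CKO mice (red circles) left of the 4 control mice (blue squares). Below the dimmest control array lie 11 of 12 Hira CKO arrays for Chaf1a, 9 for Set and 7 for Nap1l1.

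HJURP recognises CENP-A and places it at centromeres after mitosis. Hjurp (chr1:88258856-88277644) was the only measured member with a higher mean in Hira CKO. Its brighter probe read 588, 576, 564 and 525 in Hira CKO mice, against 450.04, 400.3, 466 and 591 in control mice. Hira CKO mice were closely grouped, and control_6497 lay above all of them while the other 3 control mice lay below. The change was 0.25 (SE 0.12, 95% interval -0.027 to 0.54, adjusted p = 0.169). The dimmer probe read 181, 144, 136 and 174 in Hira CKO mice, against 95.9, 140.1, 156 and 206 in control mice, and gave 0.13 (SE 0.22).

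Treating all 24 arrays as samples, with the mouse as a random block, gave a smaller error for the same changes. In that fit 3 members passed as lower, namely Chaf1a (adjusted p = 0.00235), Set (0.00682) and Nap1l1 (0.0382), and Hjurp passed as higher (0.0353). The 3 arrays of a mouse are technical, so the fit over mice is the one the calls rest on.

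The genes whose profile over the 8 mice lay nearest to that of Chaf1a, by the root mean square difference of mean-centred log2 values, were Hspa14 (0.043), Bard1 (0.048) and Cap2 (0.049). Their own changes were -0.38 (adjusted p = 0.0300), -0.35 (adjusted p = 0.0571) and -0.35 (adjusted p = 0.0413). Since these genes were picked for matching Chaf1a in the same mice, similar changes follow from the choice and are not separate evidence.

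Single genes in the further chaperone lists changed by more than any of the 7 genes. The medians of these lists were smaller in size than the -0.25 of the 7. Over all genes 4.94% were called higher and 9.65% lower, and the list counts from here on are read beside these shares. In a list of 9 genes of the HIRA complex and H3.3 pathway, all measured, 1 rose and none fell, with a median of -0.081. ASF1B hands H3-H4 to CAF-1 and, with its paralog ASF1A, to HIRA. Asf1b read 390.3, 423, 562 and 421 in Hira CKO mice, against 211, 198, 171 and 226 in control mice. All Hira CKO mice were far above the control range, and the change was 1.15 (SE 0.14, adjusted p = 0.00206). Asf1a averaged 2357 ± 259 in Hira CKO and 2108 ± 141 in control, a change of 0.16 (SE 0.11) that did not pass.

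Of 31 further histone chaperones, 23 were measured, of which 1 rose and 3 fell, with a median of -0.14, as for all genes. Nap1l5, an imprinted relative of Nap1l1, read 1014, 957, 686 and 436 in Hira CKO mice, against 263, 264, 305 and 292 in control mice. The Hira CKO values were spread widely but all exceeded the controls, and the change was 1.39 (SE 0.25, adjusted p = 0.0105). Dnajc9, which pairs H3-H4 binding with recruitment of heat shock chaperones, read 3332, 3404, 3897 and 4126 in Hira CKO mice, against 5769, 4999.7, 5327 and 6110.4 in control mice. It fell by 0.59 on the log2 scale (SE 0.11, adjusted p = 0.0118), with no overlap. The oocyte nucleoplasmin Npm2, dim at 67.4 ± 9.10 in Hira CKO and 95.1 ± 7.12 in control, fell by 0.50 (adjusted p = 0.0245) and Nap1l2, named because it completed the called genes of the list, fell by 0.46 (SE 0.11, adjusted p = 0.0261). After quantile normalization Npm2 (adjusted p = 0.149) and Nap1l2 (adjusted p = 0.144) were no longer called, and the list then had 1 higher and 1 lower. Asf1b, Nap1l5 and Dnajc9 were called in each of the 23 alternative fits over all genes at the threshold of 0.05. At the stricter threshold of 0.01 Asf1b passed, and Nap1l5 and Dnajc9 did not.

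**Figure D4:**
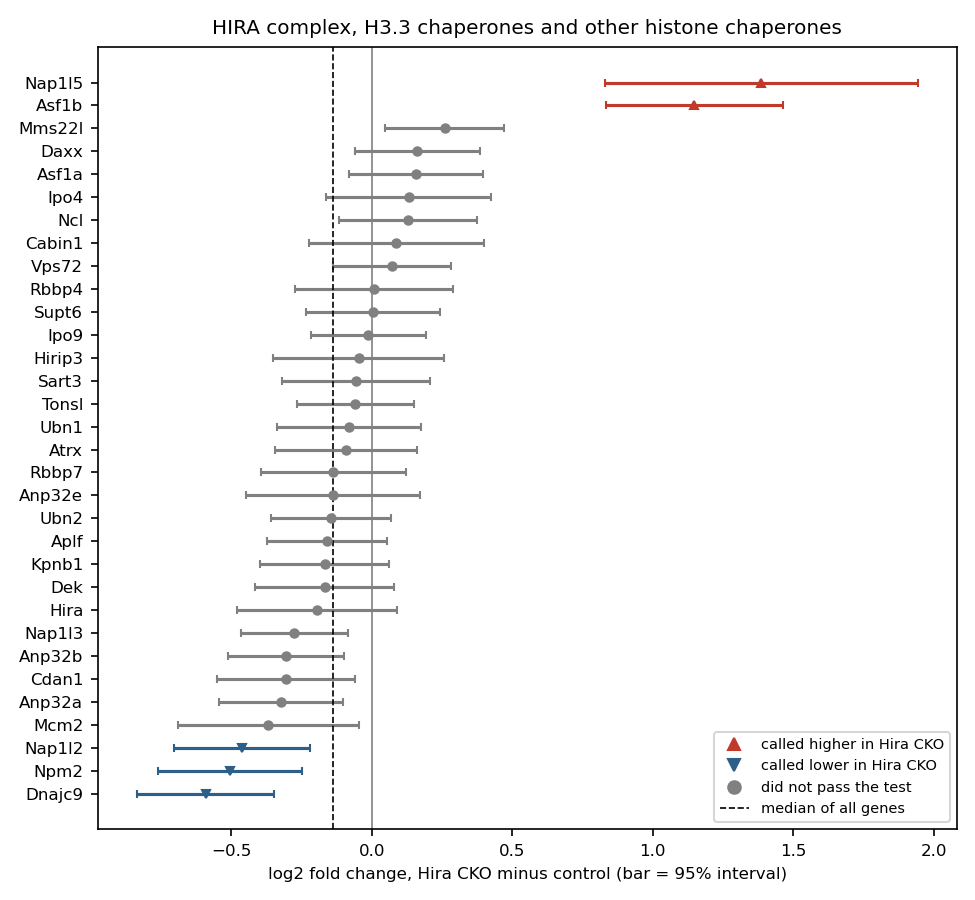
Log2 fold change (horizontal axis, Hira CKO minus control, bars are 95% intervals) of the measured genes of the HIRA complex, the H3.3 pathway and the further histone chaperones, ordered by change; triangles mark genes called higher (red, up) or lower (blue, down) and grey circles those that did not pass. Nap1l5 at 1.39 and Asf1b at 1.15 stand to the right, and Dnajc9 at -0.59 is lowest.

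CAF-1 works at the replication fork, and 34 of 36 listed fork genes were measured. Of these 2 rose and 3 fell, with a median of -0.20 as deposited and -0.15 after quantile normalization. The mean was lower in Hira CKO for 29 of the 34, beside 67.8% of all genes, while the called genes went both ways. Pole, the catalytic subunit of the leading-strand polymerase, averaged 158 ± 21.6 in Hira CKO and 270.1 ± 36.3 in control (-0.77, SE 0.13, adjusted p = 0.00928). Gins2, a subunit of the replicative helicase, averaged 304 ± 30.1 in Hira CKO and 209 ± 11.9 in control (0.54, SE 0.099, adjusted p = 0.0120). Pola1, the catalytic subunit of the polymerase that primes synthesis, averaged 1267 ± 327 in Hira CKO and 613 ± 131 in control (1.03, SE 0.23, adjusted p = 0.0246). Pole and Gins2 were called in every fit that left out 1 mouse, and Pola1 in 3 of 8, with adjusted p up to 0.0637. Of 20 markers of cycling cells, 18 were measured, 1 fell and none rose, with a median of -0.23 as deposited and -0.086 after quantile normalization. That gene, the mitotic kinase Ttk, averaged 87.0 ± 13.2 in Hira CKO and 125 ± 17.9 in control (adjusted p = 0.0458), and was not called after quantile normalization (adjusted p = 0.262).

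FACT had no annotated probe, and its level cannot be read from other genes. All 30 listed genes that act beside it in transcription elongation were measured. Of these 2 rose and 2 fell, with a median of -0.11. Ell3, an elongation factor of the ELL family, read 1324, 920.5, 1264 and 1088 in Hira CKO mice, against 346, 364, 339.6 and 318 in control mice. It had the smallest p of all listed partner genes, with a change of 1.74 (SE 0.13, adjusted p = 0.000147). Tcea3, the TFIIS form of muscle and other tissues, averaged 14946 ± 1460 in Hira CKO and 27130 ± 3485 in control (-0.86, SE 0.12, adjusted p = 0.00399). Nelfcd, a subunit of the pausing factor NELF, averaged 6787 ± 556 in Hira CKO and 5168 ± 234 in control (0.39, SE 0.091, adjusted p = 0.0268), and lost its call in 6 of 8 fits that left out 1 mouse (adjusted p up to 0.0698).

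HJURP loads CENP-A onto centromeres that the MIS18 complex has licensed. Of 22 listed centromere genes 21 were measured, and 2 rose and 3 fell, with a median of -0.067. Oip5, which encodes the MIS18 beta subunit, read 148, 173, 218 and 175 in Hira CKO mice, against 85.4, 107, 93.5 and 108 in control mice, without overlap (0.85, SE 0.14, adjusted p = 0.00708). Smarca5, the ATPase of several chromatin spacing complexes, averaged 10114 ± 648 in Hira CKO and 15911 ± 1479 in control (-0.65, SE 0.097, adjusted p = 0.00515). Cenpu, of the constitutive centromere network, averaged 190.0 ± 6.38 in Hira CKO and 241 ± 10.3 in control (-0.35, adjusted p = 0.0247), and was not called after quantile normalization (adjusted p = 0.0745). Cenpa, the cargo of HJURP, averaged 23293 ± 2150.3 in Hira CKO and 19212 ± 3347 in control, a change of 0.29 (SE 0.14, adjusted p = 0.157) that did not pass.

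Of 25 nucleolar genes listed as partners of NPM1, 18 were measured, 2 rose and none fell, with a median of 0.094. Bop1, which matures the large ribosomal subunit, averaged 4448 ± 485 in Hira CKO and 2949 ± 159 in control (0.59, SE 0.10, adjusted p = 0.00953). Polr1c, a subunit shared by RNA polymerases I and III, averaged 10024 ± 458 in Hira CKO and 7669.5 ± 657 in control (0.39, SE 0.091, adjusted p = 0.0278). All 15 partners of SET and phosphatase 2A were measured, and 2 fell and none rose, with a median of -0.16. Trex1, a DNA exonuclease found with SET, averaged 1309 ± 66.2 in Hira CKO and 1681 ± 96.4 in control (-0.36, SE 0.085, adjusted p = 0.0277). Nme1, a nucleoside diphosphate kinase of the same complex, was dim at 58.2 ± 12.6 in Hira CKO and 86.9 ± 3.15 in control (-0.60, SE 0.15, adjusted p = 0.0311), and was not called after quantile normalization (adjusted p = 0.248).

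Among the genes named from these lists, Pole, Gins2, Ell3, Tcea3, Oip5, Smarca5 and Bop1 were also called in each of the 23 alternative fits at the threshold of 0.05, while Gins2 did not pass the stricter threshold of 0.01. The others lost the call in most of the 8 fits that left out 1 mouse. Trex1 and Polr1c were kept in 3 (adjusted p up to 0.0863 and 0.0727), Cenpu, Npm2 and Nap1l2 in 2 (up to 0.0642, 0.0717 and 0.0749), and Nme1 and Ttk in 1 (up to 0.0823 and 0.101). Without the 2 arrays with many low values, the further chaperones had 1 higher and 2 lower, the elongation genes 2 higher and 1 lower, the centromere genes 1 higher and 3 lower, and the cycling markers none in either direction, while the counts of the other gene lists were as given.

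Markers of cell types in the wall differed in part with the groups. The summed intensity of 7 measured cardiomyocyte markers ran from 1799250 to 1982450 in Hira CKO mice and from 1656770 to 1768520 in control mice, although no single one of them passed. Their median change was 0.085, and 0.063 after quantile normalization. The control sums include Tnni3, which averaged 229455 ± 100883 in control and read 83786 in control_6497. The sums of 8 endothelial markers ran from 128728 to 147704 in Hira CKO mice and from 145900 to 168105 in control mice. The median change of the endothelial markers was -0.25, equal to that of the chaperones, and no gene was called. Pecam1 changed by -0.38 (SE 0.12, adjusted p = 0.0618). The 5 smooth muscle markers summed to between 158342 and 225074 in Hira CKO mice and between 102066 and 141153 in control mice. Of these Acta2 rose (0.87, adjusted p = 0.0166), the other 4 had lower means in Hira CKO and did not pass, and the median of the list was -0.38. Acta2 averaged 160728 in Hira CKO and 87813 in control, so it made up most of the sums. The paper found smooth-muscle α-actin in Hira CKO cardiomyocytes, so these sums do not measure smooth muscle cells alone. Fibroblast sums overlapped, at 264517 to 322897 in Hira CKO and 276385 to 296863 in control. Of the 7 measured macrophage markers Cd68 rose (0.70, adjusted p = 0.0272), while the other 6 had lower means in Hira CKO and did not pass, and the median of the list was -0.20. Of the atrial markers Nppa rose (1.74, adjusted p = 0.000479), and Sln did not pass (1.19, SE 1.16). The RNA was from ventricle, and a change in atrial cells was not tested. On these arrays the paper reports higher levels in Hira CKO for most fetal genes linked to heart failure. Acta2 was not called without control_6675 (adjusted p = 0.0512), and Cd68 was called in 3 of 8 fits that left out 1 mouse (adjusted p up to 0.0699). No gene was called among the lymphocyte, erythroid and Schwann cell markers. The part of these differences in the lower means of the chaperones was not tested.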

How the data were processed

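The authors deposited 1 table of probe intensity values for 24 arrays, on a linear scale, scaled by them to a common median of 513.2 per array. Since some values are below 0, background was subtracted, by a method not given in the sources used here. Every array was mapped to its mouse through the labels. Values under 1 (0 to 2535 of 26423 probes on an array, none on a chaperone probe) were raised to 1 before log2. A gene symbol was held by 20377 probes, and symbols were updated through the RefSeq table of GRCm38.p6. For genes with several probes the one brightest over all mice was used. The 3 arrays of a mouse were averaged on the log2 scale, since the mouse is the replicate. That mice of a group are separate animals is given by the labels, and the number of mice limits the precision.

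The 2 groups were compared over 17742 genes with limma 3.58.1 (lmFit and eBayes, no covariate, R 4.3.3). The fit was tested on simulated data. Named were every measured member with all its probes, up to 3 called genes of smallest p in each list (or the 1 of smallest p where none was called), and the 3 genes nearest in profile to a called member. Genes named beyond this rule (Hira, Asf1a, Rbbp4, Cenpa, Tnnt2, Nap1l2 and those under other observations) were chosen after their values were seen. The members and lists were chosen with earlier results of these data known. Alternatives were cyclic loess or quantile normalization, adding an offset of 50, removal of dim genes, the mean of all probes, the linear mean of arrays, a trended prior and the methods' t-test. Further ones were arrays as samples, blocks of array number or of neighbouring mouse numbers (such as 6299 and 6300), every probe tested, other thresholds, and leaving out each mouse or array number. Arrays numbered alike in different mice did not deviate together in the median (correlation -0.043), but single correlations ran from -0.83 to 0.65. The main fit does not pair arrays by number, and the median does not settle whether arrays of 1 number share an effect.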

Additional observations from a re-analysis of the deposited data

How the results depend on the processing

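Among the chaperones, only Nasp, which was not called in any setting, changed sign. It was 0.0209 after quantile normalization, 0.0257 after cyclic loess and 0.0516 with the mean of both probes, and from -0.102 to 0.0402 when 1 mouse or array number was left out. The count of chaperones called lower, 1 as reported, was 3 over 24 arrays with the mouse as a random block and 3 with the array number as a replicate block in addition, where 1 was called higher in both. It was 0 at a threshold of 0.01, 2 at 0.10, 0 without the arrays with many low values (control_6299, array 1, and CKO_6672, array 3), and 0 to 1 when 1 mouse or array number was left out. With neighbouring mouse numbers as a block it was 1, with adjusted p of 0.0348 for Chaf1a, 0.0511 for Set and 0.115 for Nap1l1. Over all genes 876 were higher and 1712 lower. Higher calls were 1454 with the mouse as a random block, 1415 with the replicate block added, 283 at a threshold of 0.01 and 1422 at 0.10. Lower calls were 973 after quantile normalization, 866 after cyclic loess, 2681 with the linear mean of arrays, 985 by the methods' t-test, 260 at 0.01, 3718 at 0.10 and 1118 without the arrays with many low values. Leaving out 1 mouse or array number gave 434 to 916 higher and 503 to 3568 lower, the lowest of both without control_6675 and the highest lower count without CKO_6300. The replicate block changed the calls of Set (adjusted p = 0.00761), Nap1l1 (0.0419) and Hjurp (0.0435) as the fit without it did. The cause of these shifts was not tested. Quantile normalization turned the balance of calls to 1251 higher and 973 lower, so a small change is read beside the median of all genes.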

Other observations

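A few chaperone partners that did not pass the test, chosen after their values were seen, had groups that did not overlap. The groups lay apart for 23.4% of all genes as well. Other listed genes that did not pass also had groups apart, among them Nap1l3 and Rfc3. Anp32a, an acidic protein that copurifies with SET, averaged 20524 ± 1486 in Hira CKO and 25680.0 ± 2229 in control mice, a change of -0.32 (SE 0.098, adjusted p = 0.0560 in limma). Its relative Anp32b averaged 10859.9 ± 594 in Hira CKO and 13431 ± 1020 in control, a change of -0.31 (SE 0.091, adjusted p = 0.0533). Mcm2, a helicase subunit that also carries H3-H4, averaged 597 ± 107 in Hira CKO and 762 ± 60.2 in control, a change of -0.37 (SE 0.14, adjusted p = 0.101). Mms22l, which with TONSL reads newly deposited H4, averaged 1969 ± 60.4 in Hira CKO and 1649.7 ± 161 in control, a change of 0.26 (SE 0.093).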
